A study of Mus musculus with 23 samples.

Results

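The comparison described here set primary mammary tumours of mice treated with Anakinra alone (A, n = 5) against those of mice given placebo (P, n = 6), which are 11 of the 23 tumours profiled, chosen by their treatment labels. All tumours were E0771, a mouse mammary carcinoma line first described as a spontaneous tumour of the same mouse background, grown in female C57BL6/J mice that were 6 to 8 weeks old at tumour cell injection. Per the methods, the cells carried luciferase and a green fluorescent protein and were placed in the mammary ducts of mice with an intact immune system. Anakinra was given daily at 1 mg/kg from day 9, placebo was also given daily, and mice were culled on day 23. The remaining groups received Doxorubicin (Dox), weekly at 2 mg/kg, followed by Zoledronic acid (Zol), with daily Anakinra (ADZ, n = 6) or without it (DZ, n = 6). They enter here as a second contrast that differs by Anakinra. The study gives the A and DZ tumours as coming from separate animals. For the P and ADZ tumours the labels do not say so, and the p-values below measure the spread between tumours.

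Anakinra is a recombinant form of the natural IL-1 receptor antagonist. IL-1A and IL-1B bind the receptor IL1R1, which pairs with the accessory protein IL1RAP and signals through MYD88, IRAK kinases and TRAF6 to NF-kB and AP-1, while IL1R2 is a decoy that binds ligand without signalling. In inflamed tissue this relay is known to switch on cytokines such as IL-6, the neutrophil-attracting CXC chemokines, prostaglandin synthesis and adhesion molecules of the vessel wall, and IL-1B itself needs cleavage by caspase-1 in the inflammasome. Anakinra occupies the receptor protein, and the RNA levels of the ligands, of the receptors and of the genes that IL-1 induces are separate readouts.

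RNA was counted with barcoded probes on a panel of 770 mouse genes, of which 750 are immune and tumour genes and 20 are reference genes. Values are on the log2 scale, after the counts of each tumour were multiplied by a factor that sets the mean of the reference genes to 11.4 log2 units in each tumour, and are called levels below. A difference of 1 log2 unit is 2-fold. Total gene counts were 904781 to 1669712 per tumour in A and 939394 to 1677295 in P, and the background limit, set 2 SD above the average of 8 probes without a target, was 4.34 to 4.95 in A and 4.16 to 5.31 in P. At or below it lay 122 to 141 genes per tumour in A and 85 to 162 in P. Of the 770 genes, 560 (72.7%) were above background in all 11 tumours and 56 (7.27%) in none.

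Ptprc, Cd68 and Col3a1, genes of leucocytes, macrophages and matrix, were measured well above background in all 11 tumours. Above background in all 11 were 31 of 34 macrophage and monocyte genes and 22 of 23 fibroblast and matrix genes. The macrophage marker Cd163 was not, being below it in P2 and P6. These are bulk tumours, in which fewer cells of a type and less RNA per cell cannot be told apart. Ptprc, the pan-leucocyte phosphatase CD45, was 9.30, 10.43, 9.13, 9.24 and 10.99 in A tumours 1 to 5, against a lowest, median and highest value of 9.15, 9.92 and 11.47 in P. Cd68, a macrophage lysosomal protein, was 11.37 to 12.21 in A and 11.46 to 12.41 in P, and Col3a1, a fibrillar collagen, 12.71 to 13.72 in A and 12.69 to 14.77 in P. The epithelial adhesion genes Cdh1 (5.85 to 6.89 in A, 5.83 to 7.28 in P) and Epcam (5.23 to 7.01 in A, 3.94 to 7.50 in P) were measured too, with Epcam at or below background in 1 P tumour.

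Placebo tumour P4 stood apart, and the gene lists and the differences that it moves are therefore given with and without it. It exceeded every other P tumour in 429 genes (55.7%) and lay below all of them in 96 (12.5%), it was the highest of all 11 A and P tumours in 389 (50.5%), and its level was above the mean of the other P tumours by a median of 0.61 log2 units over the panel. The genes farthest above were those of lymph node tissue and B cells. Glycam1, a mucin-like protein made by lymph node venules, was 9.06 in P4 against 2.10 to 4.16 in the other P tumours, and Ccl21a, a lymph node chemokine, was 11.01 against 4.15 to 5.60. Cxcl13 (9.66), the B cell surface gene Ms4a1 (10.19) and Cd79b (10.59) were 5.72 to 6.05 log2 units above the mean of the other P tumours. The genes farthest below were inflammatory ones: Il24 (6.95, difference −2.54), Sele, an endothelial selectin (6.03, −2.15), Csf2 (4.78, −1.87), Clec7a (−1.65) and Il1rn (9.68, −1.64). Of the lymph node genes fixed as markers, Cr2 and Cxcl13 were at or below background in all 5 A tumours, at 3.18 to 4.24 and 3.18 to 4.37, and Ccl21a in 3 of 5. Ccl19, also fixed as such a marker, was above background in all 5 A tumours. The part of lymph node tissue in the values of P4 was not tested.

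Scaling mattered as much. The median of all 770 genes was 7.83, 8.20, 7.85, 8.08 and 8.36 in A and 7.94 at the lowest, 8.14 at the median and 9.09 (P4) at the highest in P, although the reference genes averaged the same in every tumour. As deposited, the median difference over the panel, A minus P, was −0.09 log2 units, and it was 0.03 without P4, 0.13 after each tumour was recentred on its own panel median, 0.08 with both changes and 0.03 after quantile normalization. A gene that is lower in A on 1 of these 5 scales can thus be higher on another, and 369 genes (47.9%) kept their sign as deposited, without P4 and recentred. On all 5 scales, 135 were lower (17.5%) and 210 higher (27.3%).

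No gene differed between A and P tumours after adjustment over the 770 genes. By limma 0 genes had an adjusted p under 0.05 (0.0%), with a smallest adjusted p of 0.999 as deposited, 0.999 without P4 and 0.946 recentred. At an unadjusted p under 0.05 there were 9 genes (1.17%), 1 higher in A (0.13%) and 8 lower (1.04%). Without P4 there were 7 (0.909%), of which 5 were higher (0.649%) and 2 lower (0.26%). Recentred there were 9 (1.17%), 7 higher (0.909%) and 2 lower (0.26%), and without P4 as well 6 (0.779%), all higher (0.779%). After quantile normalization there were 11 (1.43%), 6 higher (0.779%) and 5 lower (0.649%), so that the balance of direction changed with the treatment of P4 and of the scale. The exact permutation test, two-sided over all ways to choose 5 of 11 tumours, gave 11 genes at an unadjusted p under 0.05 (1.43%), 3 higher and 8 lower, with a smallest p of 0.00649 where 0.00433 is the smallest possible. After adjustment it gave none, with a smallest adjusted p of 1.

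As deposited, 513 of the 770 genes were lower in A (66.6%). Without P4 this was 331 (43.0%), and recentred it was 228 (29.6%). In no gene did the A and P tumours separate without overlap (0.0%). Without P4 they did in 3 (0.39%), all higher in A, of which Prg2 was at or below background in all of those tumours and another is not reported here. The remaining one, Axl, a receptor tyrosine kinase of the TAM family that takes part in the clearance of dying cells, was 12.61, 12.52, 12.54, 12.57 and 12.67 in A, against 12.34 to 12.50 in the 5 P tumours other than P4 and 12.63 in P4. The difference in Axl was 0.14 log2 units with a standard error of 0.14 in the limma fit (p = 0.350, exact permutation p = 0.0368), and 0.17 without P4, where the exact permutation p was 0.00794, the smallest that 5 against 5 tumours can give.

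The data also bound how large a difference could have been missed. The 95% interval of A minus P lay within 2-fold in either direction for 524 genes (68.1%) and within 1.5-fold for 247 (32.1%). The median standard error was 0.29 log2 units. The differences ran from −1.23 (Ccl21a) to 0.71 (Dmbt1), and the central 90% of genes lay between −0.61 and 0.22. A difference of 2-fold or more was found for 5 genes (0.649%), Ccl21a, Cd46, Ms4a1, Marco and Lcn2, all lower in A. In Ccl21a, Ms4a1 and Marco the value of P4 made most of it, since without P4 the differences were −0.19, −0.16 and −0.34, and Cd46 was below background throughout. Lcn2 kept its size (−1.04 without P4).

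In the IL-1 family itself, no gene passed a test between A and P tumours. Of 13 ligands and receptors on the panel, 7 were lower and 6 higher in A as deposited, with a median difference of −0.02 log2 units, and 3 were lower after recentring (median 0.20). None reached an unadjusted p of 0.05 by limma, and for 9 of 13 the interval lay within 2-fold. Over the whole panel the median was −0.09 as deposited and 0.13 after recentring, and over the 20 reference genes −0.01 and 0.21.

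Il1b was 10.78, 11.41, 10.69, 11.14 and 10.57 in A, against 10.15 (P4) at the lowest, 11.20 at the median and 12.11 at the highest in P. The A values all lay inside the range of P, and the difference was −0.22 ± 0.40 (standard error, exact permutation p = 0.576), −0.42 without P4, −0.03 without P2 and −0.01 recentred. The A tumours were also closer together, with an SD of 0.35 against 0.83 in P. Il1a, the other agonist, was 5.83 to 6.97 in A and 5.43 to 7.68 in P (−0.19 ± 0.44, exact permutation p = 0.662), −0.41 without P4 and 0.05 without P2. Il1rn, the gene of the natural antagonist that Anakinra copies, was 10.81 at the lowest, 11.30 at the median and 11.40 at the highest in A, against 9.68 (P4), 11.13 and 11.93 at the lowest, median and highest in P. Its difference was 0.13 ± 0.34 (exact permutation p = 0.773) and turned negative without P4 (−0.14).

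Among the receptors, Il1r1, the receptor that Anakinra blocks, was 11.33, 10.61, 10.77, 10.65 and 10.90 in A and 10.36 to 11.12 in P (0.15 ± 0.22, exact permutation p = 0.413). The mean of Il1r1 was higher in A on all 5 scales, but A1 alone lay above the range of P. Il1rap, its partner chain, was 12.35, 11.99, 11.78, 11.58 and 12.19 in A and 11.16 (P4), 11.68 and 12.11 at the lowest, median and highest in P. At 0.32 ± 0.22 it had the largest positive difference of the family (exact permutation p = 0.171), and it stayed positive on all 5 scales, at 0.22 without P4 and 0.54 recentred. The decoy Il1r2 was 8.85 to 9.31 in A and 8.37 to 9.65 in P, a difference of −0.02 ± 0.31. For the sister cytokine IL-18, Il18 differed by −0.05 ± 0.16, and its receptor chains by −0.31 (Il18r1) and 0.18 (Il18rap). The IL-33 receptor Il1rl1 differed by 0.09, the inhibitory receptor Sigirr by 0.15, and Il1rl2, the IL-36 receptor, by −0.35 as deposited but 0.03 without P4. Il1rapl2 was at or below background in all but 1 tumour.

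**Figure D1:**
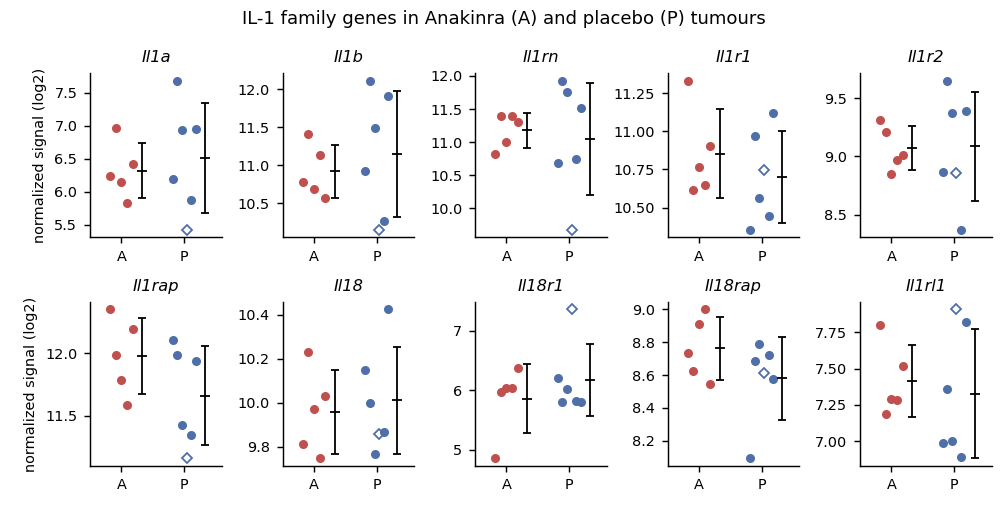
Levels (normalized signal, log2) of 10 IL-1 family genes in each A tumour (red, left) and each P tumour (blue, right; P4 as an open diamond), with the group mean and SD as bars. The groups overlap in every panel; for Il1b and Il1rn the A tumours lie within the range of P, which is widened downwards by P4 at 10.15 and 9.68.

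The relay from the receptor to NF-kB was nearly level. Of 31 genes of IL-1 and Toll-like receptor signalling, NF-kB and AP-1, all above background in all 11 tumours, 17 were lower in A as deposited, with a median of −0.01 log2 units, and 29 had an interval within 2-fold. After recentring 4 were lower (median 0.21), against 29.6% of the panel and 0 of the 20 reference genes (median 0.21). The differences ran from −0.33 (Irak3, an inhibitory IRAK) to 0.21 (Jun, an AP-1 subunit), and none reached an unadjusted p of 0.05. The adaptor Myd88 was 9.90 to 10.11 in A and 9.52 to 10.20 in P, a difference of −0.02 ± 0.14. Jun was 11.94, 12.10, 12.04, 11.68 and 11.87 in A and 11.20 (P4) to 11.95 in P (exact permutation p = 0.182), higher in A on all 5 scales, whereas Rel, an NF-kB subunit, differed by −0.22 as deposited and −0.09 without P4. These transcripts report the abundance of the relay, not whether it was active.

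The genes that IL-1 is known to induce leaned lower in A on every scale, without any single gene passing a test. Of 27 such genes, 22 were lower in A as deposited (median −0.29 log2 units, beside 66.6% and −0.09 over the panel) and 24 without P4 (median −0.24, beside 43.0% and 0.03). Recentred, 16 were lower (median −0.07, beside 29.6% and 0.13), recentred without P4 23 (−0.18, beside 30.0% and 0.08), and after quantile normalization 18 (−0.17, beside 44.2% and 0.03). With each tumour left out in turn 19 to 24 were lower, with medians of −0.38 to −0.20. In 14 of the 27 the sign was negative on all 5 scales and in 2 it was positive. None reached an unadjusted p of 0.05 in the deposited values, the intervals of 11 lay within 2-fold, and the list was drawn up with earlier results of these data known, so that the counts are a description. Of its members, Lcn2 and Mmp9 also stand in the neutrophil list below, and those given by value here were partly chosen after their values were seen.

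NF-kB is known to bind upstream of several of these genes, and a kB motif of 10 bases, read on either strand and shown in capitals in the sequences printed here, was searched from 250 bases before to 50 bases after the gene start in RefSeq (GRCm38.p6). A window was at hand for 17 of the 27 genes, and 7 of them held the motif (41.2%), as did 37 of 566 panel genes (6.54%) and 512 of 27025 genes of the annotation (1.89%). The 7 were Cxcl1, Cxcl2, Cxcl3, Il6, Ccl20, Csf1 and Tnfaip3. A match of letters is no evidence of binding in these tumours. The 150 bases before the start are shown for the 3 neutrophil-attracting chemokines and for Il6, because these are the inducible cytokine genes with the largest negative differences that hold the motif and lie above background, with each match of the motif in capitals.
Cxcl1 (chr5:90891095-90891244, strand +): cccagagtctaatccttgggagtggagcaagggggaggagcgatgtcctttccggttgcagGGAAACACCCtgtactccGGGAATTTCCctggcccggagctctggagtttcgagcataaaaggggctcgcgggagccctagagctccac
Cxcl2 (chr5:90903749-90903898, strand +): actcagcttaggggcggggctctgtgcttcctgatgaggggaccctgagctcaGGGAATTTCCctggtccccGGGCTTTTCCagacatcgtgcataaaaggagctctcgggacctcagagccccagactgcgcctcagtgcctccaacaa
Cxcl3 (chr5:90785951-90786100, strand +): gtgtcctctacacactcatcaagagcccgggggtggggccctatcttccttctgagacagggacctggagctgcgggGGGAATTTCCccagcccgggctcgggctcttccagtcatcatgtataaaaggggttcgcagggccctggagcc
Il6 (chr5:30012964-30013113, strand +): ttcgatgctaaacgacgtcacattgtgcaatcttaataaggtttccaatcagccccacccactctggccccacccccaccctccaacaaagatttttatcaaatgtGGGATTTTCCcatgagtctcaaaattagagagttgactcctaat
Cxcl1 and Cxcl2 hold the motif 2 times in this stretch, in Cxcl1 once on each strand, and Cxcl3 and Il6 hold it once. The first base of the first motif lies 89 bases before the start in Cxcl1, 97 in Cxcl2, 73 in Cxcl3 and 44 in Il6.

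Cxcl2, a ligand of the neutrophil receptor CXCR2, was 8.25, 7.71, 8.00, 8.80 and 5.93 in A, against 7.66, 8.91 and 9.43 at the lowest, median and highest in P. A5 lay far below all other tumours, while the other 4 A tumours lay below the median of P. The difference was −0.94 ± 0.59 (limma p = 0.128, exact permutation p = 0.108), −0.89 without P4 and −0.72 recentred, but −0.49 without A5. Cxcl3, a close relative, was 8.66, 7.47, 8.34, 9.05 and 5.59 in A and 7.61, 8.95 and 9.57 at the lowest, median and highest in P (−0.95 ± 0.75, exact permutation p = 0.184), again lowest in A5, and the difference was −0.86 without P4 and −0.39 without A5. Cxcl1, the third of the set, was 7.36, 7.82, 8.20, 8.24 and 6.35 in A and 7.46, 8.10 and 8.98 in P (−0.52 ± 0.41, exact permutation p = 0.247), a difference of −0.52 without P4 and −0.21 without A5. The differences of all 3 chemokines thus shrank by more than 1.5 times when A5 was left out.

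Il6 was 6.16, 5.51, 6.80, 6.08 and 5.37 in A, against 5.72, 6.67 and 7.08 at the lowest, median and highest in P. A3 reached the upper values of P and the other 4 did not, with a difference of −0.53 ± 0.32 (p = 0.107, exact permutation p = 0.128), −0.50 without P4 and −0.32 recentred. Lcn2, lipocalin-2, an iron-sequestering protein of neutrophils and inflamed epithelium, was 9.81, 9.72, 9.78, 10.05 and 8.57 in A and 9.25, 10.75 and 11.66 in P, and it was highest in P2, P6 and P4. All 5 A tumours lay below 5 of the 6 P tumours, the exception being P5. The difference in Lcn2 was −1.11 ± 0.68 (p = 0.118, exact permutation p = 0.0584), −1.04 without P4 and −0.89 recentred. Csf3, the granulocyte growth factor G-CSF, differed by −0.82 ± 0.79, the matrix protease Mmp9 by −0.68 ± 0.52, the cytokine Osm by −0.53 ± 0.38 and Ptgs2, the inducible cyclooxygenase, by −0.49 ± 0.44. Without P4 these were −1.08, −0.77, −0.64 and −0.55. Single tumours moved them too: Csf3 was −0.53 without A5, −0.49 without P2 and −0.43 without P6, Mmp9 −0.39 without P2 and −0.45 without A3, Osm −0.31 without A5 and Ptgs2 −0.15 without A5.

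Members at the other end were nearly level. Tnf was 7.55 to 8.40 in A and 7.58 to 8.20 in P (0.05 ± 0.18), and Tnfaip3, the NF-kB feedback inhibitor A20, 9.03 to 9.32 in A and 8.91 to 9.58 in P (−0.07 ± 0.14). Icam1 differed by −0.07 ± 0.20 and the monocyte chemokine Ccl2, among the most strongly read chemokines of the panel, by −0.11 ± 0.25. Ccl2 was 14.22, 14.12, 14.31, 14.21 and 13.49 in A and 13.78, 14.10 and 14.71 at the lowest, median and highest in P, so that A5 alone lay below P. Csf2 and Sele were 0.07 and 0.36 higher in A as deposited, −0.24 and 0.00 without P4, in which both were low.

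**Figure D2:**
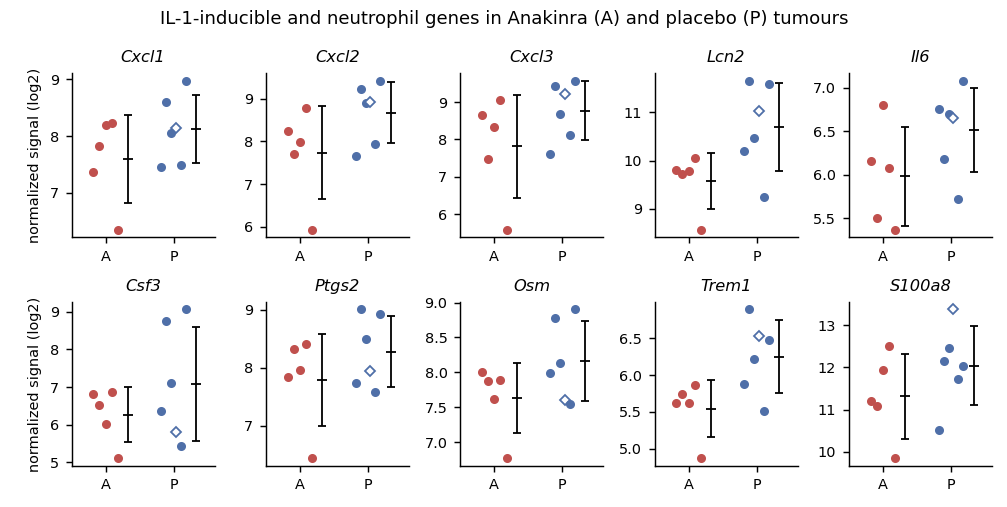
Levels (normalized signal, log2) of 8 IL-1-inducible genes and of the neutrophil genes Trem1 and S100a8 in each A tumour (red, left) and each P tumour (blue, right; P4 as an open diamond), with the group mean and SD as bars. All group means are lower in A on each of the 5 scales, the groups overlap in every panel, and the lowest A value in every panel is that of A5.

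The spread of this list came mostly from few tumours. The mean of its genes, each centred on its mean over the 11 tumours, was −0.17, −0.07, −0.11, −0.02 and −0.54 in A and −0.10, 0.48, 0.18, 0.09, −0.32 and 0.58 in P1 to P6. A5 was the lowest and P6 and P2 the highest, and P5 and P1 lay among the A tumours. Without A5, 21 of 27 genes were lower in A (median −0.21), and without P2 19 (−0.34). The mean of the 17 neutrophil genes moved along in part, at −0.39 to 0.07 in A and −0.29 to 0.73 in P, and its part in the result was not tested.

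Neutrophil genes were lower in A in 14 of 17 cases as deposited (median −0.40 log2 units), in 12 without P4 (−0.12) and in 10 recentred (−0.18), beside 66.6%, 43.0% and 29.6% of the panel. Of the 17, 10 were above background in all 11 tumours and 5 in none, so that these counts rest in part on values near background. Trem1, Camp and Mpo were below an unadjusted p of 0.05 as deposited, but Camp and Mpo, granule proteins of immature neutrophils, were at or below background in all 11 tumours. Trem1, a receptor that amplifies inflammation on neutrophils and monocytes, was 5.62, 5.75, 5.62, 5.86 and 4.87 in A, against 5.51, 6.34 and 6.89 at the lowest, median and highest in P. All A tumours lay below 5 of the 6 P tumours. The difference was −0.70 ± 0.30 (p = 0.0281, exact permutation p = 0.0325, adjusted p as for all genes not under 0.999), −0.65 without P4 (p = 0.0525) and −0.49 recentred (p = 0.166).

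S100a8, calprotectin of neutrophils and monocytes, was 11.20, 11.09, 11.94, 12.52 and 9.85 in A and 10.53, 12.09 and 13.37 at the lowest, median and highest in P, a difference of −0.72 ± 0.54 (exact permutation p = 0.251), −0.46 without P4 and −0.36 without A5. Cxcr2, the receptor of the CXC chemokines above, differed by −0.63 ± 0.53 (−0.42 without P4, −0.33 without A5), and Csf3r, the G-CSF receptor, by −0.41 ± 0.33 as deposited and −0.12 without P4. Genes shared with macrophages had differences near 0: Cybb, the phagocyte oxidase, differed by −0.00 ± 0.32 and the formyl peptide receptor Fpr2 by −0.00 ± 0.32. The Fc receptor Fcgr4, by contrast, was 9.64, 11.61, 10.08, 10.18 and 11.67 in A and 9.90, 10.28 and 11.79 in P (0.18 ± 0.48).

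Itgb4 had the smallest p as deposited and was the only one of the 9 genes under an unadjusted p of 0.05 that was higher in A. It encodes integrin beta-4, which anchors epithelial cells to the basement membrane. It was 8.45, 8.16, 7.92, 7.50 and 8.61 in A, against 7.29, 7.63 and 7.99 at the lowest, median and highest in P. A1, A2 and A5 exceeded all P tumours, and A4 fell among the lower ones. The difference was 0.49 ± 0.20 (p = 0.0210, exact permutation p = 0.0606), the same without P4 (0.49, p = 0.0268) and 0.70 recentred (p = 0.00708). Its usual partner Itga6 was 13.19 to 13.72 in A and 12.41 (P4) to 13.65 in P, a difference of 0.34 ± 0.23 (exact permutation p = 0.143), 0.21 without P4, and positive on all 5 scales.

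Prg2 and C8a, which reached an unadjusted p of 0.05 without P4 and recentred, were at or below background in all 11 tumours, and Blk, a B cell kinase, was above background only in P4 (6.59).

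Amica1, a junctional adhesion molecule of migrating leucocytes, was 7.07, 7.35, 7.16, 7.44 and 7.38 in A, against 7.32, 7.66 and 8.06 in P, a small but even difference (−0.35 ± 0.16, p = 0.0349, exact permutation p = 0.0346) that was −0.27 without P4 and shrank to −0.14 after recentring. Chil3, a chitinase-like protein of alternatively activated macrophages and immature neutrophils, was 8.39, 9.22, 7.93, 8.70 and 7.15 in A and 8.20, 9.28 and 9.93 in P (−0.91 ± 0.45, exact permutation p = 0.0693), −0.85 without P4. Gzmm and Klra3, of cytotoxic and NK cells, were under 0.05 from values mostly at or below background.

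On the recentred scale, 3 further genes above background in all tumours were higher in A at an unadjusted p under 0.05. Tnfrsf4, the costimulatory receptor OX40, was 6.20, 6.72, 6.67, 6.69 and 6.79 in A as deposited, against 5.84, 6.35 and 6.57 in P, so that 4 A tumours exceeded all P tumours. Its difference was 0.30 ± 0.19 as deposited (exact permutation p = 0.0844), 0.35 without P4 and 0.52 recentred (limma p = 0.0268, exact permutation p = 0.0216). Tigit, an inhibitory receptor of T and NK cells, differed by 0.19 ± 0.15 as deposited (exact permutation p = 0.279), 0.24 without P4, 0.12 without A5, 0.07 without P5 and 0.41 recentred (limma p = 0.0300, exact permutation p = 0.0238). Il34, a growth factor for macrophages, was 10.20, 9.97, 10.22, 10.02 and 10.20 in A and 9.51 (P4), 9.84 and 10.11 at the lowest, median and highest in P, a difference of 0.28 ± 0.16 (p = 0.0838, exact permutation p = 0.0281), 0.21 without P4 and 0.50 recentred (p = 0.0397, exact permutation p = 0.104).

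The smallest exact p as deposited belonged to Sbno2, a transcriptional coregulator, which was named after its values were seen. It was 9.67, 9.61, 9.83, 9.71 and 9.62 in A, against 9.82, 9.91 and 10.22 at the lowest, median and highest in P, with A3 alone inside the range of P. The difference was −0.30 ± 0.17 in the limma fit (p = 0.0876, exact permutation p = 0.00649), and it was −0.25 without P4 and −0.08 recentred.

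**Figure D3:**
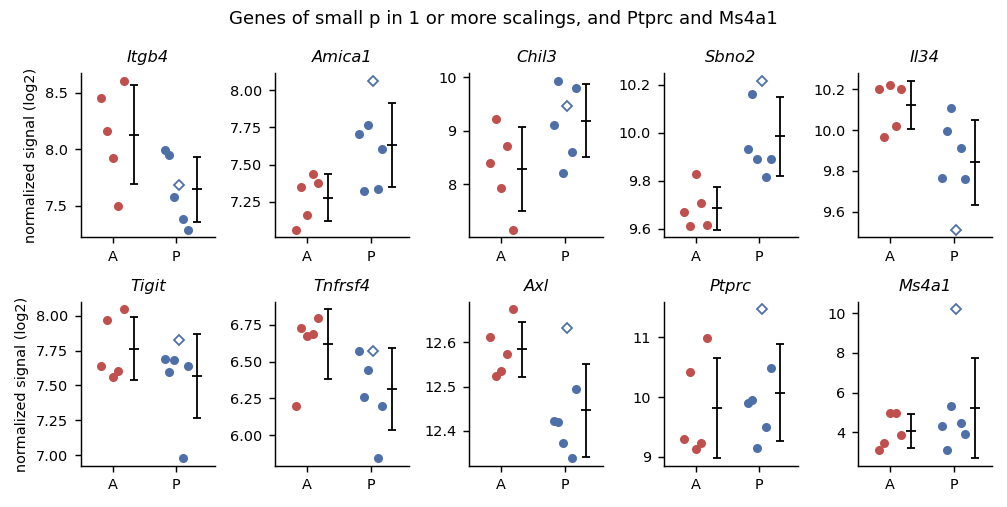
Levels (normalized signal, log2) of 8 genes with a small unadjusted p on at least 1 scale, and of Ptprc and Ms4a1, in each A tumour (red, left) and each P tumour (blue, right; P4 as an open diamond), with the group mean and SD as bars. Itgb4, Il34, Tnfrsf4, Tigit and Axl have higher means in A as deposited and Amica1, Chil3 and Sbno2 lower ones; in Ms4a1 P4 lies at 10.19, above all other tumours.

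Macrophage and monocyte genes showed how far P4 and the scale set the direction of a list. As deposited 31 of 34 were lower in A (median −0.20 log2 units), but 14 without P4 (0.02), 16 recentred (0.02), 11 with both (0.07) and 26 after quantile normalization (−0.09). None was under an unadjusted p of 0.05. Lyz2, lysozyme, was 12.87, 13.67, 12.95, 13.78 and 14.55 in A and 13.24, 13.64 and 16.01 (P4) at the lowest, median and highest in P, and the difference of −0.37 ± 0.48 became 0.05 without P4. Cd68 differed by −0.11 ± 0.19 and 0.02 without P4. Apoe, a lipid carrier made by tissue macrophages, differed by −0.28 ± 0.67 and 0.20 without P4, and Arg1, arginase of alternatively activated macrophages, by −0.75 ± 0.72 and −0.30.

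T cell genes turned likewise. Of 23, 21 were lower in A as deposited (median −0.23), 5 without P4 (0.06), 13 recentred (−0.02) and 4 with both (0.12). Cd3e, a chain of the T cell receptor complex, was 4.82, 6.43, 6.23, 6.65 and 6.54 in A and 5.75, 6.14 and 8.57 (P4) in P, a difference of −0.36 ± 0.51 as deposited and 0.06 without P4. A1 was the lowest of the 11 tumours, and the other 4 A tumours exceeded the median of P. Cd8a differed by −0.18 ± 0.40 as deposited and 0.12 without P4. Regulatory and helper genes behaved alike, with 16 of 27 lower as deposited and 10 without P4.

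Cytotoxic and NK cell genes were lower in A in 24 of 37 cases as deposited (−0.14), 20 without P4 (−0.01) and 14 recentred (0.07). Ncr1, the NK receptor NKp46, was 4.45, 5.18, 5.32, 5.93 and 5.91 in A and 5.51, 5.77 and 6.95 (P4) in P, and its difference of −0.60 ± 0.38 (exact permutation p = 0.108) was negative on all 5 scales, at −0.40 without P4, and −0.37 without A1. Klrb1c, the other gene fixed as an NK marker, did not share this lean. It was at or below background in most tumours, and recentred it was 3.86 to 4.88 in A and 3.37 to 5.24 in P. Gzmb, granzyme B, differed by −0.19 ± 0.30 and the pore-forming Prf1 by 0.02 ± 0.40. Immune checkpoints were lower in A in 11 of 19 cases as deposited (−0.01) but in 2 of 19 on each of the other 4 scales (medians 0.10 to 0.21). The galectin Lgals3, a ligand of inhibitory receptors, was 14.63 to 14.84 in A and 14.16 to 14.87 in P (0.20 ± 0.15), higher in A on all 5 scales.

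B cell genes had the largest shift of any list as deposited and lost it without P4. Of 27, 26 were lower in A (median −0.52), 23 recentred (−0.31) and 25 after quantile normalization (−0.36), but 11 without P4 (0.07) and 8 recentred without P4 (0.13). Only 8 of the 27 were above background in all 11 tumours. Ms4a1, CD20, was 3.11, 3.48, 4.95, 4.99 and 3.87 in A and 3.10, 4.41 and 10.19 (P4) in P, a difference of −1.15 ± 0.81 (exact permutation p = 0.465) that was −0.16 without P4. No value in A came near that of P4.

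**Figure D4:**
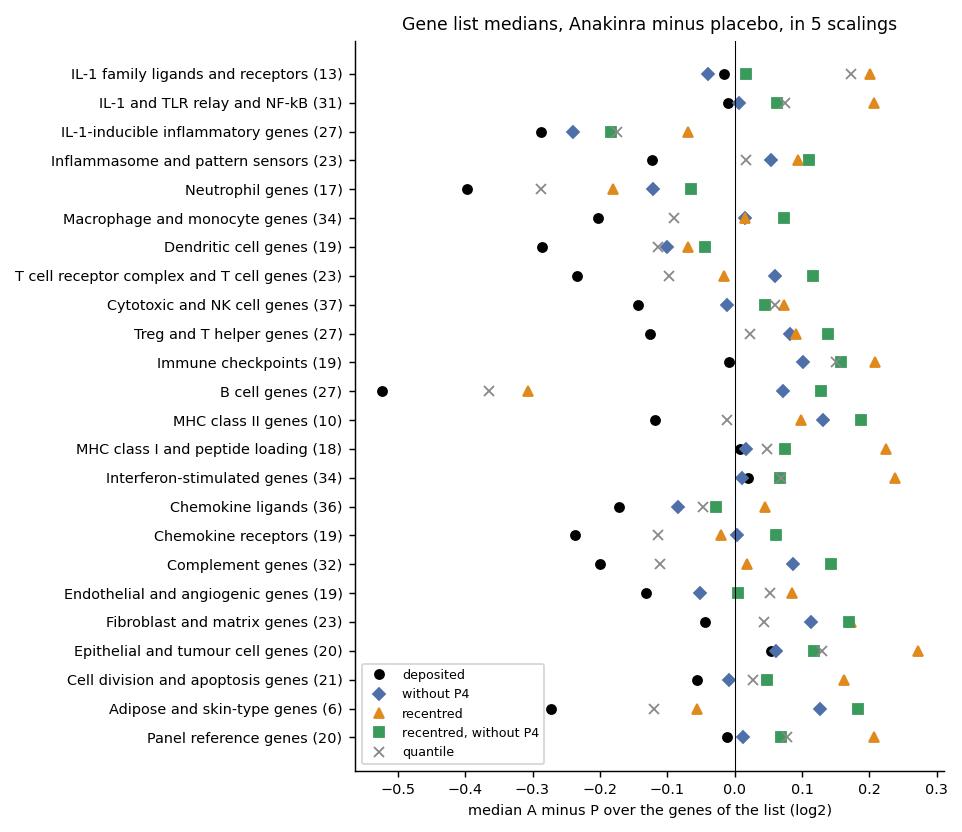
Median difference, A minus P (log2 units), over the genes of each of 24 lists (number of genes in brackets) on 5 scales: deposited (black circles), without P4 (blue diamonds), recentred on the panel median (orange triangles), recentred without P4 (green squares) and quantile normalized (grey crosses). The IL-1-inducible, neutrophil and dendritic cell lists lie below 0 on all 5 scales, whereas the B cell median runs from −0.52 as deposited to 0.13 recentred without P4.

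Dendritic cell genes were lower in A in 15 of 19 cases as deposited (−0.29), 12 without P4 (−0.10), 12 recentred (−0.07), 10 with both (−0.04) and 12 after quantile normalization (−0.11). Ccr7, the receptor that leads mature dendritic cells to lymph nodes, was 7.36, 7.59, 7.19, 7.14 and 7.80 in A and 6.90, 7.84 and 8.87 (P4) in P (−0.44 ± 0.25, exact permutation p = 0.184). It was negative on all 5 scales, at −0.24 without P4 and −0.23 recentred. Ccl22, a chemokine of dendritic cells and macrophages, was 7.46 to 8.20 in A and 6.96 to 8.66 in P (−0.35 ± 0.23, exact permutation p = 0.264), and −0.24 without P4.

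MHC class II genes varied between tumours far more than between treatments. H2-Aa was 11.68, 14.06, 11.65, 11.68 and 14.92 in A and 11.62, 12.94 and 13.87 (P4) at the lowest, median and highest in P. A2 and A5 stood above all P tumours and A1, A3 and A4 near the lowest, so that the means differed by 0.02 ± 0.60 (exact permutation p = 0.981), 0.23 without P4, 0.30 without A3 and −0.52 without A5. Of the 10 class II genes, 6 were lower in A as deposited (median −0.12), 1 without P4 (0.13), 4 recentred (0.10), 1 with both (0.19) and 5 after quantile normalization (−0.01). As a mean of centred values they were −0.95, 0.69, −0.78, −0.74 and 1.28 in A1 to A5, the widest range of any list within A. Chemokine Cxcl9, which interferon-gamma induces, followed the same tumours, at 10.02, 12.04, 10.06, 10.33 and 11.86 in A, against 9.87 to 12.18 in P (−0.16 ± 0.42).

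**Figure D5:**
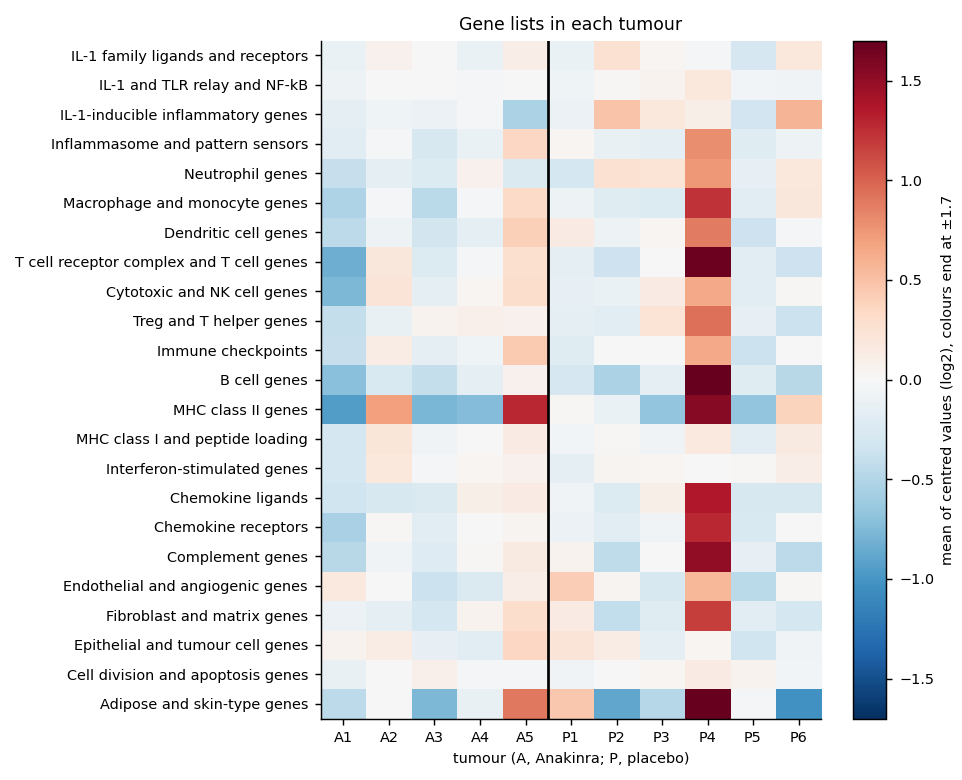
Mean level of each gene list in each tumour, after centring each gene on its mean over the 11 tumours (colour scale in log2 units, red high, blue low; colours are capped, and B cell genes in P4 at 3.12 and adipose genes in P4 at 2.39 lie beyond the cap). A tumours are left of the line and P tumours right of it; P4 is high in most immune lists, A2 and A5 are high in MHC class II genes, and A5 is low and P2 and P6 high in IL-1-inducible genes.

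Within A, A1 and A5 lay at opposite ends of several leucocyte lists. A5 was the highest A tumour in 287 genes and A1 the lowest in 288. A1 lay lowest of the 5 in T cell, cytotoxic, macrophage and B cell genes (centred means −0.83, −0.77, −0.53 and −0.71), while A5 lay highest in them (0.27, 0.30, 0.32 and 0.08) and at the same time lowest in IL-1-inducible genes (−0.54). The median SD over the panel was 0.37 log2 units in A and 0.52 in P, and 0.35 in P without P4. The SD was larger in P in 568 genes (73.8%), and in 392 (50.9%) without P4. Across both groups, A3, A4, P3 and P5 stood together in some genes, of which 3 picked after their values were seen are given recentred. Isg15 was 12.22 to 12.57 in these tumours and 10.43 to 10.98 in the others, and Smad2 10.07 to 10.31 and 8.51 to 9.22. Map3k1 was 8.11 to 8.39 in them and 9.16 to 9.60 in the others except P4 (7.95). The cause was not tested.

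Interferon-stimulated genes were level and tightly bounded as deposited. Of 34, 15 were lower in A (median 0.02), and 31 had an interval within 2-fold. Without P4 14 were lower, and recentred 3 (0.24, beside 29.6% and 0.13 over the panel and 0.21 over the 20 reference genes). Bst2, tetherin, was 13.82 to 14.03 in A and 13.63 to 14.03 in P (0.04 ± 0.14). Ifitm1 stood out in the list, at 8.37, 8.56, 8.52, 9.09 and 7.46 in A and 8.38, 9.26 and 9.53 in P, a difference of −0.66 ± 0.37 (exact permutation p = 0.0801) that was negative on all 5 scales, at −0.57 without P4, and −0.43 without A5. MHC class I genes were lower in A in 9 of 18 cases (0.01), and H2-D1 differed by 0.20 ± 0.18.

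Inflammasome and pattern sensor genes were lower in A in 15 of 23 cases as deposited (−0.12), but in 8 without P4 (0.05) and 6 recentred (0.09). Casp1, the protease that matures IL-1B, was 10.29, 11.08, 10.94, 11.08 and 10.89 in A and 10.66, 10.99 and 11.33 in P (−0.12 ± 0.17), with A1 below all others. Nlrp3, the inflammasome sensor, was 7.03 to 7.70 in A and 7.11 to 8.19 in P (−0.31 ± 0.25, exact permutation p = 0.216), negative on all 5 scales. Complement genes were lower in 22 of 32 cases as deposited and in 14 without P4.

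Tumour and stromal genes differed little as deposited. Epithelial and tumour cell genes were lower in A in 7 of 20 cases as deposited (0.05), 5 without P4 (0.06) and 1 recentred (0.27), beside 66.6%, 43.0% and 29.6% of the panel. On all 5 scales 12 of 20 were higher, beside 27.3% of the panel and 7 of the 20 reference genes. For 19 of the 20 the interval lay within 2-fold as deposited. Cell division and apoptosis genes were lower in 14 of 21 cases as deposited (−0.06), 13 without P4 (−0.01) and 1 recentred (0.16), with 20 intervals within 2-fold: Myc differed by 0.15 ± 0.14, Birc5, survivin, by −0.07 ± 0.23, and Trp53 by −0.09 ± 0.10. Vessel genes were lower in 15 of 19 cases as deposited (−0.13), 14 without P4 (−0.05) and 5 recentred (0.09). Among them Vegfa was 9.34 to 9.90 in A and 9.07 to 10.07 in P (−0.03 ± 0.19, −0.05 without P4), and Cdh5, VE-cadherin, differed by −0.08 ± 0.27.

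Fibroblast and matrix genes were lower in A in 14 of 23 cases as deposited (−0.04) and in 4 without P4 (0.11) and 4 recentred (0.17). Thbs1, thrombospondin 1, was 9.04, 9.66, 8.83, 9.70 and 8.28 in A and 8.96, 9.73 and 10.47 in P, and at −0.62 ± 0.35 (exact permutation p = 0.152) it was negative on all 5 scales, at −0.49 without P4, and −0.41 without A5. Col3a1 differed by −0.04 ± 0.38. The 6 adipose and lipid genes, in which P4 was farther above the rest than in any list but the B cell genes, were lower in 4 cases as deposited and in 0 without P4. The 20 reference genes, to which the deposited scale is tied, were lower in 11 cases (−0.01), with all 20 intervals within 2-fold. Recentred, 0 of them were lower (0.21), and 7 were higher on all 5 scales. The recentred rise of other lists is to be read beside this.

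The other pair of groups that differs by Anakinra, ADZ against DZ, shares no tumour with A and P. There, too, no gene passed adjustment (by limma 8 genes at an unadjusted p under 0.05, all lower, 1.04%), and 553 genes were lower in ADZ (71.8%). As deposited, the 13 IL-1 family genes were all lower in ADZ, with a median of −0.20 log2 units, where 7 were lower in A. Il1r1 averaged 10.69 ± 0.50 in ADZ and 11.01 ± 0.30 in DZ (SD, n = 6 each), a difference of −0.32 ± 0.21. The panel medians themselves averaged 8.10 in ADZ and 8.31 in DZ, and recentred values of the family are not given for this pair. Of the inducible genes, 24 of 27 were lower in ADZ as deposited (−0.21), and 15 recentred (−0.01, beside 32.5% and 0.10 over the panel). The lean was not particular to them. As deposited, 33 of 34 macrophage and monocyte genes (−0.31), 18 of 19 vessel genes (−0.28) and 14 of 17 neutrophil genes (−0.27) were lower in ADZ. MHC class II genes (2 of 10, 0.22) and relay genes (12 of 31, 0.03) were not mostly lower.

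Cxcl2 differed by −0.97 ± 0.57, Cxcl3 by −1.42 ± 0.71 and Il6 by −0.61 ± 0.30 in ADZ minus DZ, beside −0.94, −0.95 and −0.53 in A minus P, where they were −0.49, −0.39 and −0.38 without A5. Cxcl1 differed by 0.08 ± 0.39 in ADZ minus DZ and by −0.52 in A minus P. Ptgs2 differed by −0.97, at an unadjusted p of 0.0347, and Nlrp3 by −0.50. Trem1 (−0.42 ± 0.28) and Chil3 (−0.62 ± 0.43) were lower in ADZ as well, but Itgb4 averaged 8.03 ± 0.31 in ADZ and 8.10 ± 0.21 in DZ (SD), a difference of −0.07 ± 0.19.

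The difference between the 2 effects of Anakinra was tested in the same fit, and no gene passed adjustment (smallest adjusted p 0.996). At an unadjusted p under 0.05 were 2 genes, Il18rap and Lrrn3. Il18rap, the accessory chain of the IL-18 receptor, averaged 8.76 ± 0.19 in A and 8.58 ± 0.25 in P (SD, n = 5 and 6), and 8.58 ± 0.24 in ADZ and 8.89 ± 0.18 in DZ (SD). It was 0.18 higher in A and 0.31 lower in ADZ than in its comparison group, a difference of effects of 0.49 ± 0.20 (standard error, adjusted p = 0.996).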

How the data were processed

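RNA of the tumours (150 ng each) was hybridised to the nCounter panCancer mouse immune profiling panel, and the counts were processed by the authors with nSolver (version 4.0) and its Advanced Analysis module (version 2.0). The deposited values are log2 signals with 1 column per tumour and 784 lines, which hold 750 endogenous and 20 reference genes besides 8 negative and 6 positive control probes. Dividing out a factor per tumour (0.759 to 1.57) gave whole counts, within 0.05, for 100% of the gene values. Whether background was subtracted is not given in the sources used here, and 6 values are listed at exactly 0. No batch is named in the labels.

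The model was fitted in limma (version 3.58.1, R version 4.3.3) by lmFit with moderated two-sided tests, adjusted by the Benjamini-Hochberg method over 770 genes, on all 23 tumours, with the contrasts A minus P, ADZ minus DZ and their difference. The standard errors and 95% intervals are those of this fit. Single genes were also compared by an exact permutation test over all arrangements of the tumours. No filter on low values was applied. Recentring subtracted from each tumour the median of its 770 genes. The other alternatives are given in the closing section. Gene lists were described by counts and medians, with no test.

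The genes named are the 10 with the smallest p as deposited, without P4 and recentred, those without overlap, all IL-1 family members, in each other list the 2 of highest level and the 2 of smallest p, the 5 genes farthest above and the 5 farthest below the other P tumours in P4, cell type markers and Ptprc; other genes of known role were added after their values were seen. A few genes that the rule selects are left out. The members and lists were chosen with earlier results of these data known. Symbols matched RefSeq for 754 of the 770 genes and a further 8 by synonym. Tumours of A and P that carry the same number were correlated in their deviations from the group means. Of such pairs 4 of 5 exceeded 0.1, and pair 5 was at −0.29. The labels do not name the numbers as pairs, so the main fit does not pair them. A fit with the number as a block is given in the closing section. Pandas 2.3.3, SciPy 1.17.1 and matplotlib 3.10.9 were used for the remaining steps and the figures.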

Additional observations from a re-analysis of the deposited data

Results flagged for a closer look

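Examined were 230 groups of 5 or 6 tumours (named genes and the panel median, in A and in P). Of these, 36 held a tumour that lay far outside the rest by Dixon's criterion. Chance meets it in about 1 of 20 independent groups, but that rate cannot be set against the 36. Some genes were named because P4 lay far from the other P tumours in them, and genes of the same tumour are not independent. In 26 of them the tumour was P4, high each time. Its panel median was 9.09. The B cell and lymph node genes were Ms4a1 (10.19), Cd79b (10.59), Blk (6.59), Btk (9.87), Cxcr5 (7.45), Cr2 (7.24), H2-Ob (9.29), Cxcl13 (9.66), Ccl21a (11.01) and Glycam1 (9.06). The T cell genes were Tcf7 (10.03), Txk (6.74) and Cd8b1 (6.92). Among myeloid and lipid genes were Lyz2 (16.01), Ccr2 (10.84), Ccl9 (14.65), Apoe (14.97), Abca1 (10.65) and Pparg (7.83). The remaining ones were Il18r1 (7.36), Il1rl2 (7.45), Il17b (5.19), Jam3 (7.39), H2-Q10 (7.76) and Prg2 (5.08), the last at or below the background of that tumour.

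In A, the tumour far from the rest was A1 or A5. A1 was low in Casp1 (10.29), Il18r1 (4.86) and Tnfrsf4 (6.20) and high in Hif1a (13.47), a regulator of the response to low oxygen. A5 was low in Ccl2 (13.49), Lcn2 (8.57) and Trem1 (4.87), which are all genes of the inflammatory lists. In P, beside P4, Fcgr4 was high in P6 (11.79), Il18rap low in P1 (8.09) and Tigit low in P5 (6.98).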

How the results depend on the processing

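As deposited, 1 gene was higher and 8 were lower in A at an unadjusted p under 0.05, and no setting gave a gene with an adjusted p under 0.05. The genes higher in A numbered 7 after recentring on the panel median, 6 after recentring without P4, 6 after quantile normalization and 3 by the exact permutation test. The genes lower in A numbered 2 after recentring, 0 after recentring without P4, 5 after quantile normalization, 4 with an intensity trend, 3 with a pseudocount of 20, 3 with genes of a mean under 20 left out and 3 with values raised to the background. With each tumour left out in turn, 0 to 5 genes were higher and 2 to 16 lower: without P4, 5 were higher and 2 lower, without P5 16 and without P1 13 were lower, without A1 and without A2 5 were lower, and the median difference over the panel ran from −0.14 to 0.03, positive only without P4. With the replicate number as a block 2 genes were higher and 11 lower. Only 2 of 5 A tumours correlated best with the P tumour of their own number, which does not settle whether the numbers are pairs. Recentring on the reference genes, a pseudocount of 1 and a fit of A and P alone gave the same counts as deposited. Of 2493 values of 114 named genes under these settings, 14 moved by more than the SD between tumours, and 67 of the 114 genes kept their sign on the 5 scales of the report. The causes were not tested, apart from fewer genes or tumours where these were left out. The precision is limited by 5 and 6 tumours per group and, for genes near background, by few counts.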
